A study of Mus musculus with 21 samples.

Results

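The 54 genes described here encode the machinery that brings newly made proteins into the endoplasmic reticulum (ER) and carries them on to the Golgi. They were chosen by gene name, and they are 54 of the 55536 genes counted. All 54 were found in the annotation, and all 54 had at least 10 reads over the samples and were tested. By role they fall into 14 genes of the translocon and the complexes around it, 5 of the signal peptidase, 6 of the oligosaccharyltransferase, 13 of the COPII coat, 7 of the COPI coat and 9 cargo receptors.

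The precursor of a secretory protein, such as preproinsulin, begins with a signal sequence. The signal recognition particle (SRP) binds this sequence while the protein is still being made. The SRP brings the ribosome to the Sec61 channel, which the TRAP complex assists, and as the chain enters the ER the signal peptidase removes the signal sequence. In many secretory proteins, though not in proinsulin, the oligosaccharyltransferase adds sugar chains to asparagine residues. COPII-coated vesicles, with cargo receptors in their membrane, take folded cargo forward to the Golgi, and COPI-coated vesicles bring escaped ER proteins and the receptors back. Pancreatic β-cells rely heavily on this route, since insulin makes up a large share of the protein they produce.

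RNA was sequenced from islets of male CBA mice that were 20 weeks old and had been on their diets from 10 weeks of age. The 3 groups were regular diet (RD, standard chow), high-fat diet (HFD) and the same high-fat diet formulated with O304 at 0.8 mg per g of diet (HFD-O304), where O304 is a compound described as a pan-activator of AMPK, the kinase by which cells respond to low energy. Each group had 7 samples, each of 150 islets from a pool of 5 mice, so a sample averages over mice and over all the cell types of the islet, and p-values measure the spread between pools. The diets ran for 9 or 10 weeks, since the sources differ, and HFD-O304 replicate 1 was placed by its title because its diet label reads HFD.

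Depth lay between 13809266 and 48922569 read pairs on genes, with a median of 38719302 over the samples, and Kdelr3, the member with the fewest reads, had a mean of 498.9 normalized counts (counts divided by a size factor for each library). Replicates 1 to 4 and replicates 5 to 7 carry separate runs of library numbers and are called the first and second library set below. The 8 β-cell markers checked were all detected and summed to between 275662 and 342456 CPM (counts scaled to the total of each library) over all samples. Marker levels by group are given after the results by role, since several of them differed between the groups.

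Per length, the members spanned a wide range of levels. TPM, a level per exon length and library total, was computed here from the counts. The length of a gene was that of all its annotated exons merged, such as 5541 bases for Srp9 and 2120 for Ddost. It can exceed the length of the transcripts present, so the order of genes depends partly on the annotation. By this measure Ddost had the highest mean over the 21 samples, at 501 TPM. It was followed by Surf4 at 405 TPM, Rpn2 at 372 TPM and Spcs3 at 324 TPM. Sec24a, at 8.40 TPM, and Srp9, at 10.7 TPM, were the lowest. In the order of all genes by mean TPM, Ddost stood at 64, Surf4 at 78 and Rpn2 at 83, whereas Sec24a stood at 7447.

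Nearly all members had positive log2 fold changes in HFD vs RD and negative ones in HFD-O304 vs HFD, most of them small, and 4 and 20 of them passed the test. In every sample the median over the 54 members was taken of the log2 normalized count relative to the RD mean. This level was -0.25, -0.05 and 0.20 in RD islets (lowest, median and highest sample), -0.03, 0.17 and 0.42 in HFD islets, and -0.19, -0.11 and 0.0032 in HFD-O304 islets. The RD and HFD samples overlapped, and the HFD-O304 samples lay close together and within the RD range. The median SD over members of the log2 normalized count was 0.19 in RD islets, 0.18 in HFD islets and 0.094 in HFD-O304 islets.

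In HFD islets 52 of 54 members had a positive log2 fold change relative to RD islets, with a median of 0.18 over members and -0.0044 over all 27229 genes tested. Of these, 4 members passed an adjusted p of 0.01 (edgeR, Benjamini-Hochberg over all genes) and all 4 were higher in HFD, namely Kdelr3, Sec11c, Ssr4 and Kdelr1. Over all genes 2.00% were called higher, and among the 7943 genes with a mean of at least that of the lowest member 3.0% were. None of the members was called lower by edgeR or by DESeq2, and none was lower at an unadjusted p under 0.05, whereas 29 were higher at that level. By edgeR, 1.54% of all genes and 2.87% of the 7943 genes were called lower. The counts at an unadjusted p in this and the other comparisons have no share over all genes beside them. No member had HFD samples that were all above the RD samples, which 1.18% of the 7943 genes did.

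With O304, 52 of 54 members had a negative log2 fold change relative to HFD islets, with a median of -0.26 against 0.027 over all genes tested. A total of 20 members were called lower, and none was called higher by edgeR or by DESeq2, with 44 lower and 0 higher at an unadjusted p under 0.05. The share called lower over all genes was 6.79%, and among the 7943 genes with at least the mean of the lowest member it was 11.5%. The shares called higher by edgeR were 5.08% and 9.78%. In 11 members every HFD-O304 sample was below every HFD sample, which held for 7.28% of the 7943 genes. Without HFD-O304 replicate 1, the sample with the doubtful label, 17 members were called lower, and without HFD-O304 replicate 2, the shallowest sample, 18 were. Of all genes 6.08% and 6.27% were called lower in these fits.

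Between HFD-O304 and RD islets, 48 of 54 members had a negative log2 fold change, with a median of -0.11. Only Sec16b was called, and it was lower in HFD-O304, while 10 members were lower and 0 higher at an unadjusted p under 0.05. Among all genes 0.903% were called lower, and among the 7943 genes 1.75% were. The shares called higher were 0.404% and 0.743%. Sec16b was also the only member without overlap between these groups, which held for 1.61% of the 7943 genes. The call of Sec16b was lost in 10 of the 21 fits that leave out a sample, namely without RD replicate 2, 3, 4 or 7, HFD replicate 2 or HFD-O304 replicate 2, 4, 5, 6 or 7, with adjusted p-values from 0.00331 to 0.0320 over the 21 fits. The comparisons share samples pairwise, so their values for a gene are not independent.

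**Figure D1:**
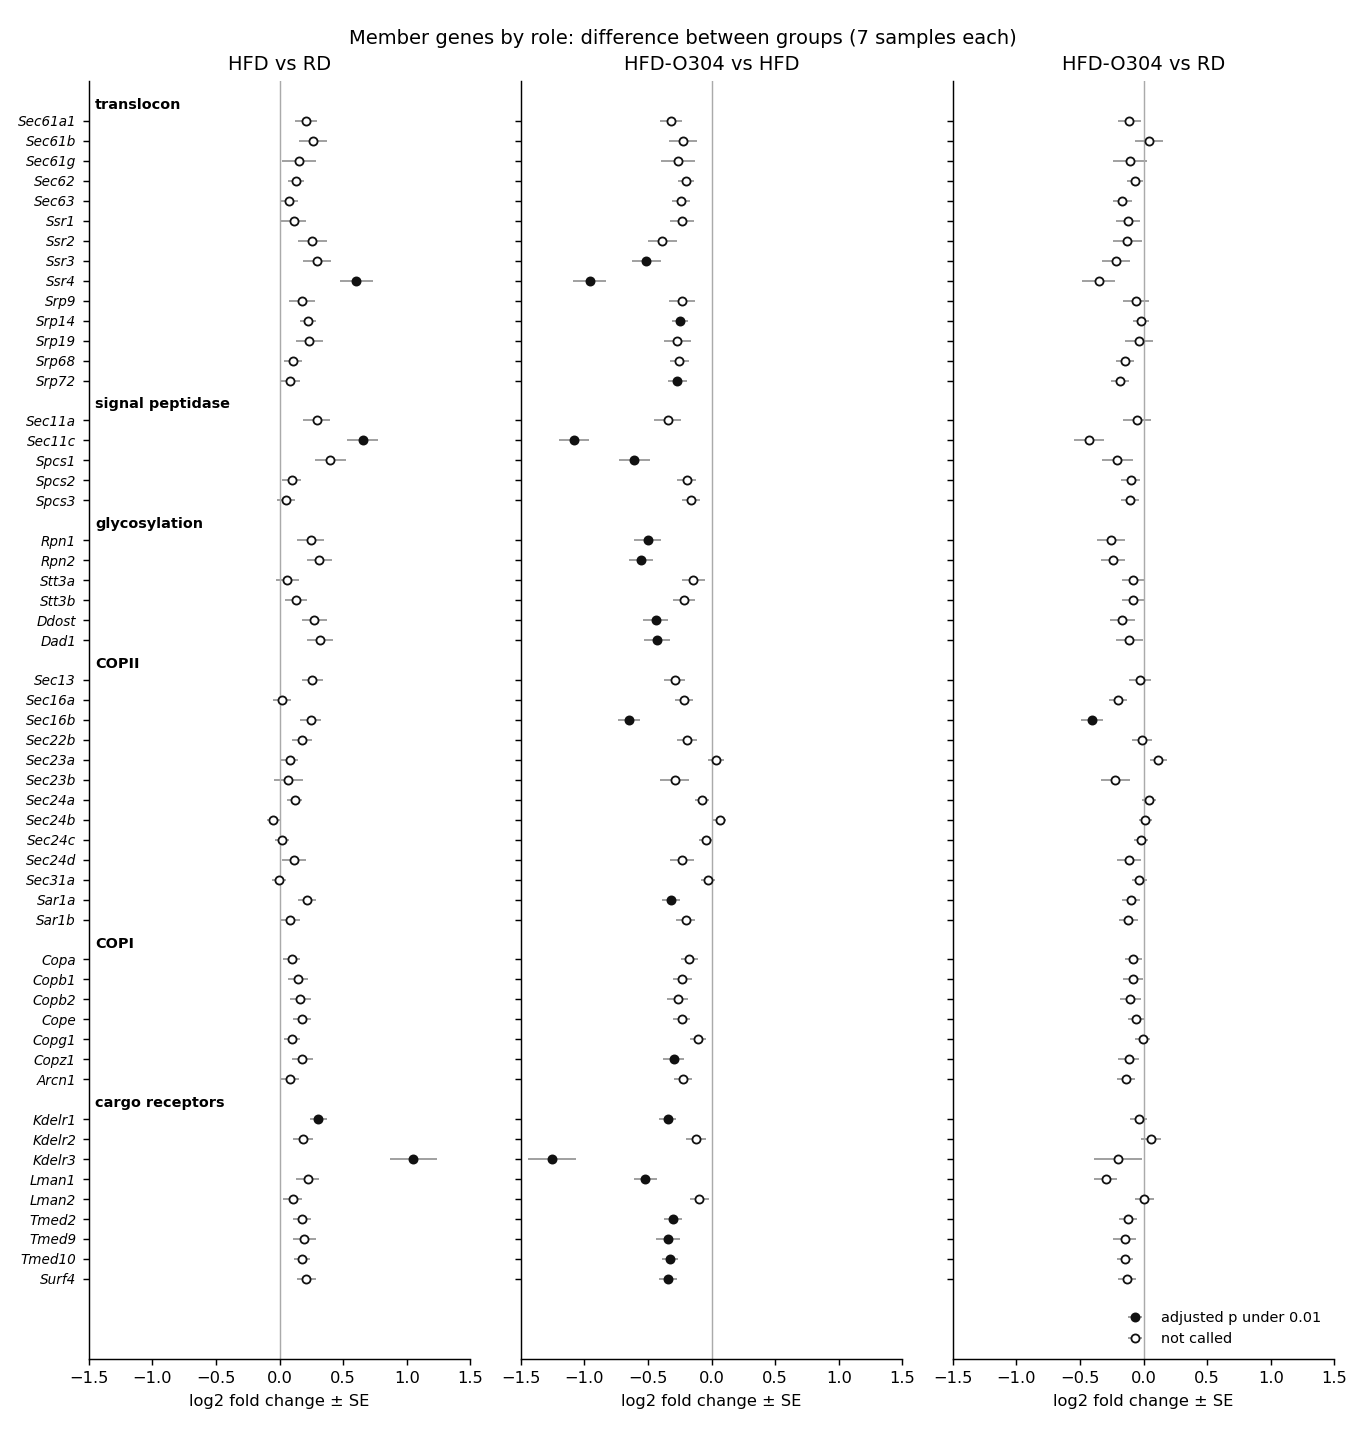
Log2 fold change ± standard error of each of the 54 members, ordered by role, in HFD vs RD, HFD-O304 vs HFD and HFD-O304 vs RD (7 samples per group). Filled points are the 4, 20 and 1 members with an adjusted p under 0.01, and most points lie right of 0 in the first panel and left of 0 in the second.

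The level of the members also differed between the library sets in each group. In RD islets the median sample level was 0.15 in the first set and -0.12 in the second, in HFD islets it was 0.30 and 0.0066, and in HFD-O304 islets it was -0.060 and -0.15. Within the first set the median log2 fold change over members was 0.16 for HFD vs RD and -0.33 for HFD-O304 vs HFD, and within the second set it was 0.22 and -0.20, so that both comparisons kept their direction. For HFD-O304 vs RD it was -0.18 within the first set and 0.014 within the second. With the set as a covariate, 9 members were called higher in HFD vs RD, 33 lower in HFD-O304 vs HFD and 3 lower in HFD-O304 vs RD. The shares of all genes called in these directions were also higher in that fit, at 3.31%, 7.90% and 1.34%. The difference between sets in these contrasts was tested directly (interaction term, edgeR), and 0 genes were called in any of the 3 comparisons, with 1862, 1314 and 1516 genes at an unadjusted p under 0.05. At that level were 4, 4 and 13 members, and the smallest member p was 0.00237 for Sec24d in HFD-O304 vs RD.

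**Figure D2:**
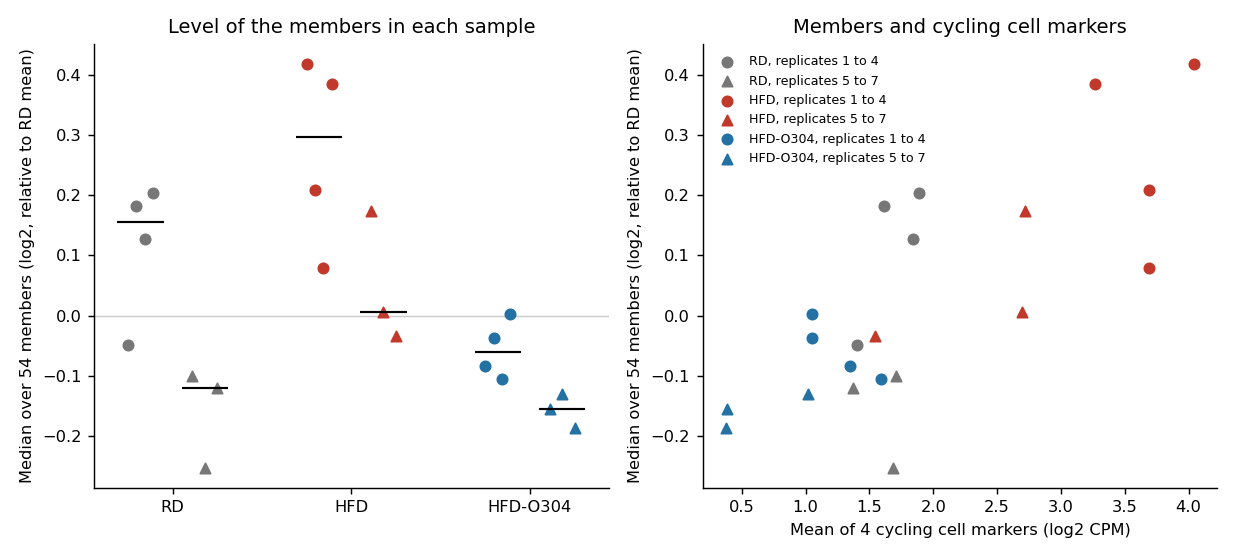
Left, the median over the 54 members in each sample (log2 normalized count relative to the RD mean) by group and library set, with a line at the median of each set. Right, the same level against the mean log2 CPM of 4 cycling cell markers. Replicates 1 to 4 (circles) lie above replicates 5 to 7 (triangles) in each group by their medians, and the HFD samples extend furthest to the right.

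Among the translocon genes, Ssr4, a subunit of the TRAP complex at the Sec61 channel, had the smallest p in both HFD vs RD and HFD-O304 vs HFD. Ssr4 lies at chrX:73787028-73790830 on the plus strand of GRCm38. Its normalized counts were 8511, 11108 and 13061 in RD islets (lowest, median and highest), 10603, 17118 and 24336 in HFD islets and 7504, 8798 and 9930 in HFD-O304 islets. In 6 of 7 HFD samples Ssr4 was above the highest RD sample, and every HFD-O304 sample was below the lowest HFD sample. Ssr4 had a log2 fold change (± standard error) of 0.60 ± 0.13 (adjusted p = 0.00390) in HFD vs RD, -0.96 ± 0.13 (adjusted p = 5.10e-06) in HFD-O304 vs HFD and -0.35 ± 0.13 (adjusted p = 0.164) in HFD-O304 vs RD. The call of Ssr4 in HFD vs RD was lost without RD replicate 6 or 7 or HFD replicate 1 or 4, with adjusted p-values up to 0.0131. It was also lost in a fit of only RD and HFD and within the second library set alone.

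Of the other TRAP subunits, Ssr3 was called lower in HFD-O304 vs HFD, with a log2 fold change of -0.51, whereas Ssr2 at -0.39 (adjusted p = 0.0161) and Ssr1 at -0.23 (adjusted p = 0.0945) were not called. Of the SRP proteins, Srp14, which with Srp9 forms the domain that slows elongation, was called lower at -0.25, and Srp72 was called lower at -0.27. The call of Srp14 was lost without HFD replicate 1, 2 or 4 or HFD-O304 replicate 5, 6 or 7 (adjusted p up to 0.0173). That of Srp72 was lost in 13 of 21 such fits (adjusted p up to 0.0329), and held only without RD replicate 1, 4, 5 or 6, HFD replicate 3, 6 or 7 or HFD-O304 replicate 4. Srp68, the partner of Srp72, stood at -0.25 (adjusted p = 0.0138), with all HFD-O304 samples below the HFD samples, while Srp9 at -0.23 and Srp19 at -0.27 overlapped.

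None of the channel genes was called by edgeR in HFD-O304 vs HFD. Sec61a1, which forms the pore, stood at 0.21 in HFD vs RD (adjusted p = 0.172) and at -0.32 in HFD-O304 vs HFD (adjusted p = 0.0114), and the small subunits Sec61b and Sec61g at -0.22 and -0.26 in the latter. Sec63, which recruits the ER chaperone BiP to the channel, stood at -0.24. Sec62, its partner, was the nearest to 0 of the 14 genes in that comparison, with normalized counts of 6151, 7030 and 7689 in RD, 6806, 7480 and 8966 in HFD and 5918, 6515 and 7516 in HFD-O304 islets. These groups overlapped, and the log2 fold changes of Sec62 were 0.13 ± 0.064 (adjusted p = 0.253), -0.20 ± 0.065 (adjusted p = 0.0297) and -0.07 ± 0.064 (adjusted p = 0.695) in HFD vs RD, HFD-O304 vs HFD and HFD-O304 vs RD. All 14 translocon genes were on the positive side in HFD vs RD (median 0.19) and on the negative side in HFD-O304 vs HFD (median -0.26).

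Sec11c, a catalytic subunit of the signal peptidase, was called in both HFD vs RD and HFD-O304 vs HFD. It had normalized counts of 3705, 4369 and 6246 in RD islets, 5193, 7353 and 10344 in HFD islets and 3062, 3495 and 4023 in HFD-O304 islets. All HFD-O304 samples were below all HFD samples and 6 of 7 were below the lowest RD sample, whereas 5 of 7 HFD samples were above the highest RD sample. Sec11c stood at 0.65 ± 0.12 (adjusted p = 0.000912) in HFD vs RD, -1.08 ± 0.12 (adjusted p = 2.74e-07) in HFD-O304 vs HFD and -0.43 ± 0.12 (adjusted p = 0.0460, not called) in HFD-O304 vs RD. Within the first and second library set it was at 0.73 and 0.53 in HFD vs RD and at -1.21 and -0.89 with O304 relative to HFD, each with an adjusted p under 0.01.

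The alternative catalytic subunit, Sec11a, stood at 0.29 and -0.35 in the same comparisons and was not called in either. Sec11a shares 163 exon bases, 3.53% of its exon length, with Nmb on the same strand, and read pairs that match both genes are in neither count. Spcs1, an accessory subunit, was called lower with O304 at -0.61, and Spcs2, also accessory, stood at -0.20. Spcs3, which is needed for catalysis, was the nearest to 0 of this role with O304, with normalized counts of 17125, 19737 and 21668 in RD, 17934, 19544 and 24108 in HFD and 15539, 17513 and 20138 in HFD-O304 islets. The groups overlapped for Spcs3, at 0.05 ± 0.070 (adjusted p = 0.748) in HFD vs RD, -0.16 ± 0.070 (adjusted p = 0.114) in HFD-O304 vs HFD and -0.11 ± 0.070 (adjusted p = 0.523) in HFD-O304 vs RD.

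In the oligosaccharyltransferase, 4 of 6 genes were called lower in HFD-O304 vs HFD, namely the non-catalytic subunits Rpn2, Rpn1, Ddost and Dad1. The share called lower among the 7943 genes was 11.5%. Rpn2, at chr2:157279017-157326319 on the plus strand, had normalized counts of 22584, 27178 and 32542 in RD, 26196, 32638 and 45568 in HFD and 21000, 22749 and 25605 in HFD-O304 islets. Every HFD-O304 sample was below every HFD sample, and 4 of 7 HFD samples were above the highest RD sample. For Rpn2 the differences were 0.31 ± 0.096 (adjusted p = 0.0421, not called) in HFD vs RD, -0.56 ± 0.097 (adjusted p = 0.000111) in HFD-O304 vs HFD and -0.24 ± 0.096 (adjusted p = 0.213) in HFD-O304 vs RD. Rpn1 fell by 0.50, Ddost by 0.44 and Dad1 by 0.43 on the log2 scale with O304, and Rpn1 was likewise without overlap. The call of Dad1 was lost without HFD replicate 1 or 4 (adjusted p up to 0.0114).

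The catalytic subunits of the oligosaccharyltransferase were not called. Stt3a, which acts with the channel while the chain is made, had normalized counts of 10453, 12414 and 15976 in RD, 11738, 13208 and 17029 in HFD and 11032, 12149 and 13767 in HFD-O304 islets. Its groups overlapped, at 0.06 ± 0.090 (adjusted p = 0.779), -0.14 ± 0.090 (adjusted p = 0.320) and -0.08 ± 0.090 (adjusted p = 0.767) in HFD vs RD, HFD-O304 vs HFD and HFD-O304 vs RD. Stt3b, which can act on sites missed by the Stt3a complex, stood at -0.22 (adjusted p = 0.0842) in HFD-O304 vs HFD.

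The COPII genes ranged from -0.65 to 0.06 in HFD-O304 vs HFD, and 2 of 13 were called lower, near the share of 11.5% among the 7943 genes. Sec16b, a scaffold of the ER exit sites where COPII vesicles form, lies at chr1:157506728-157568425 on the plus strand and had normalized counts of 1986, 2062 and 2727 in RD, 2136, 2682 and 2999 in HFD and 1264, 1735 and 1907 in HFD-O304 islets. All HFD-O304 samples were below all samples of both other groups. Sec16b stood at -0.65 ± 0.086 (adjusted p = 3.31e-06) in HFD-O304 vs HFD and -0.40 ± 0.086 (adjusted p = 0.00650) in HFD-O304 vs RD, against 0.24 ± 0.085 (adjusted p = 0.0802) in HFD vs RD. Its larger paralog Sec16a stood at -0.22 (adjusted p = 0.0306) in HFD-O304 vs HFD, also without overlap.

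Sar1a, the GTPase that starts coat assembly, was the other COPII gene called. Its normalized counts were 10292, 11003 and 12608 in RD, 11612, 13007 and 15962 in HFD and 9903, 10348 and 11541 in HFD-O304 islets, and the HFD-O304 samples were all below the HFD samples. For Sar1a the differences were 0.22 ± 0.069 (adjusted p = 0.0487, not called) in HFD vs RD, -0.32 ± 0.069 (adjusted p = 0.00120) in HFD-O304 vs HFD and -0.10 ± 0.069 (adjusted p = 0.549) in HFD-O304 vs RD. Its paralog Sar1b stood at -0.20 with O304, and Sec22b, a SNARE protein of these vesicles, at -0.19.

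None of the genes for the coat proteins themselves was called. In HFD-O304 vs HFD the cargo-binding Sec24 proteins stood at -0.08 for Sec24a, 0.06 for Sec24b, -0.04 for Sec24c and -0.23 for Sec24d, and the outer coat proteins at -0.29 for Sec13 (adjusted p = 0.0149) and -0.03 for Sec31a. Of the GTPase-activating Sec23 proteins, Sec23b stood at -0.29 (adjusted p = 0.0777) and Sec23a at 0.03. Sec24b went furthest against its role: its normalized counts were 1947, 2140 and 2182 in RD, 1979, 2069 and 2132 in HFD and 1996, 2125 and 2348 in HFD-O304 islets. These ranges overlapped, and the log2 fold changes of Sec24b were -0.05 ± 0.050 (adjusted p = 0.650) in HFD vs RD, 0.06 ± 0.050 (adjusted p = 0.462) in HFD-O304 vs HFD and 0.01 ± 0.050 (adjusted p = 0.955) in HFD-O304 vs RD. The median over the 13 COPII genes was 0.083 for HFD vs RD and -0.20 for HFD-O304 vs HFD.

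**Figure D3:**
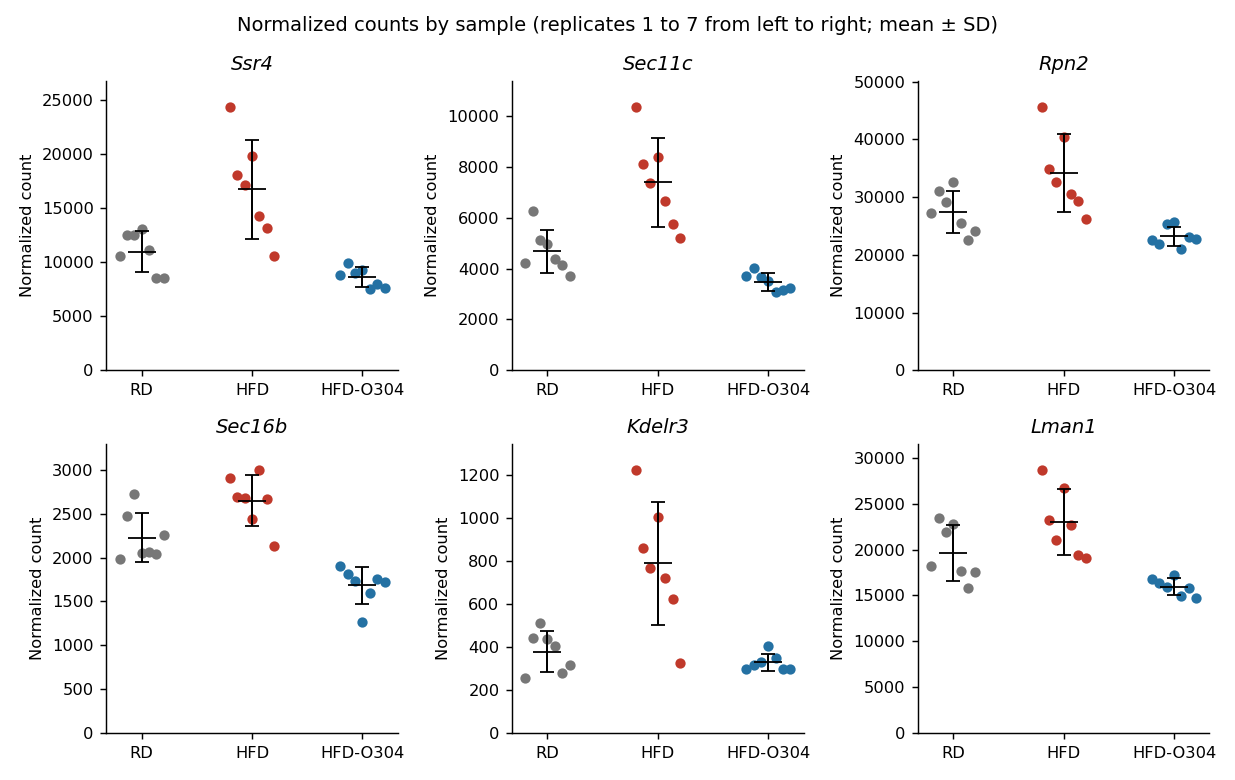
Normalized counts of Ssr4, Sec11c, Rpn2, Sec16b, Kdelr3 and Lman1 by group (RD, HFD, HFD-O304), with a point for each of 7 samples and mean ± SD; all axes start at 0. All HFD-O304 samples lie below all HFD samples for each of these genes except Kdelr3, where HFD replicate 7 reaches down to 326.

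The 7 COPI genes ranged from -0.30 to -0.11 in HFD-O304 vs HFD, and only Copz1 was called, near the share of 11.5% among the 7943 genes. Copz1, the small ζ subunit, had normalized counts of 4485, 5321 and 6609 in RD, 5450, 6070 and 7637 in HFD and 4854, 5054 and 5738 in HFD-O304 islets, with 6 of 7 HFD-O304 samples below the lowest HFD sample. Copz1 stood at 0.18 ± 0.081 (adjusted p = 0.194) in HFD vs RD, -0.30 ± 0.081 (adjusted p = 0.00914) in HFD-O304 vs HFD and -0.12 ± 0.081 (adjusted p = 0.551) in HFD-O304 vs RD, and its call was lost in 15 of 21 fits that leave out a sample (adjusted p up to 0.0330) and held only without RD replicate 4 or 6, HFD replicate 3, 6 or 7 or HFD-O304 replicate 4. Cope, the ε subunit, had the smallest p of the role in HFD vs RD, with normalized counts of 6319, 7914 and 8983 in RD, 7849, 8853 and 9929 in HFD and 7082, 7521 and 7990 in HFD-O304 islets. All Cope ranges overlapped, at 0.18 ± 0.068 (adjusted p = 0.119), -0.23 ± 0.068 (adjusted p = 0.0152) and -0.06 ± 0.068 (adjusted p = 0.785) in HFD vs RD, HFD-O304 vs HFD and HFD-O304 vs RD.

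The remaining COPI subunits were not called. Arcn1, the δ subunit, had normalized counts of 11794, 12812 and 15687 in RD, 12861, 14511 and 17530 in HFD and 11427, 12445 and 13146 in HFD-O304 islets, and stood at 0.08 ± 0.071 (adjusted p = 0.581), -0.22 ± 0.071 (adjusted p = 0.0260) and -0.14 ± 0.071 (adjusted p = 0.367) in the same order. Copg1, the γ subunit, was nearest to 0 with O304: its normalized counts were 12636, 14964 and 16880 in RD, 14150, 15279 and 17967 in HFD and 14191, 14798 and 15204 in HFD-O304 islets. The Copg1 groups overlapped fully, at 0.10 ± 0.063 (adjusted p = 0.412), -0.11 ± 0.063 (adjusted p = 0.276) and -0.01 ± 0.063 (adjusted p = 0.974). With O304 relative to HFD, Copa, Copb1 and Copb2, which build the cage-forming and adaptor parts of the coat, stood at -0.17, -0.23 and -0.27.

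Cargo receptors were the role with the highest share of calls, with 7 of 9 lower in HFD-O304 vs HFD and 2 of 9 higher in HFD vs RD. Among the 7943 genes, 11.5% were called lower in the former comparison and 3.0% higher in the latter. Kdelr3, a receptor that returns escaped ER proteins carrying a KDEL signal, lies at chr15:79516411-79527739 on the plus strand. Its normalized counts were 256, 405 and 510 in RD, 326, 768 and 1225 in HFD and 298, 316 and 407 in HFD-O304 islets. In 6 of 7 HFD samples Kdelr3 was above the highest RD sample, but HFD replicate 7, at 326, lay within the range of both other groups. Kdelr3 stood at 1.05 ± 0.19 (adjusted p = 0.000647) in HFD vs RD, -1.26 ± 0.19 (adjusted p = 1.57e-05) in HFD-O304 vs HFD and -0.20 ± 0.19 (adjusted p = 0.697) in HFD-O304 vs RD. Within the first and second library set it was at 1.22 and 0.73 in HFD vs RD and at -1.51 and -0.81 with O304 relative to HFD, with the adjusted p at 0.0517 and 0.0179 in the second set.

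Kdelr1, a more abundant receptor of the same family, lies at chr7:45872772-45883732 and had normalized counts of 4653, 5395 and 6017 in RD, 5582, 6542 and 7641 in HFD and 4951, 5203 and 5664 in HFD-O304 islets. In 6 of 7 HFD samples Kdelr1 was above the highest RD sample, and 6 of 7 HFD-O304 samples were below the lowest HFD sample. For Kdelr1 the differences were 0.31 ± 0.068 (adjusted p = 0.00505), -0.34 ± 0.068 (adjusted p = 0.000498) and -0.04 ± 0.068 (adjusted p = 0.877) in HFD vs RD, HFD-O304 vs HFD and HFD-O304 vs RD. Its call in HFD vs RD was lost without RD replicate 1, 5, 6 or 7 or HFD replicate 1, 2 or 4 (adjusted p up to 0.0174). This call was also lost in a fit of only RD and HFD and within either library set alone. Kdelr2, the last of the family, stood at 0.18 and -0.13 in the first pair of comparisons and was not called.

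Lman1, a lectin that takes glycoproteins out of the ER, had normalized counts of 15775, 18213 and 23468 in RD, 19131, 22655 and 28682 in HFD and 14694, 15963 and 17236 in HFD-O304 islets, with no overlap between the HFD-O304 and HFD samples. For Lman1 the differences were 0.22 ± 0.089 (adjusted p = 0.139), -0.52 ± 0.090 (adjusted p = 0.000105) and -0.30 ± 0.090 (adjusted p = 0.0730) in HFD vs RD, HFD-O304 vs HFD and HFD-O304 vs RD. Lman2, a related lectin, was the receptor nearest to 0 with O304, with normalized counts of 10906, 14026 and 14980 in RD, 12507, 14197 and 16548 in HFD and 12359, 13334 and 13918 in HFD-O304 islets. Lman2 overlapped between all groups, at 0.10 ± 0.074 (adjusted p = 0.484), -0.10 ± 0.074 (adjusted p = 0.429) and 0.00 ± 0.074 (adjusted p = 0.986).

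The membrane receptors of the TMED family, Tmed2, Tmed9 and Tmed10, were called lower with O304 at -0.30, -0.34 and -0.33, and Surf4, a receptor for many soluble cargo proteins, at -0.34. Surf4 and Tmed10 were without overlap between HFD-O304 and HFD. The call of Tmed9 was lost in 12 of 21 fits that leave out a sample (adjusted p up to 0.0263). It held only without RD replicate 3, 4, 5, 6 or 7, HFD replicate 3, 6 or 7 or HFD-O304 replicate 2. The calls of Surf4, Tmed2, Tmed10, Kdelr3 and Lman1 held in all 21 fits. Within the second library set alone, those of Tmed9, Surf4, Tmed2, Tmed10 and Kdelr3 were lost and that of Lman1 held. Those of Tmed9 and Tmed2 were also lost within the first set alone.

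Since paralogs of a role can substitute for each other, their balance was compared within samples as the log2 ratio of their length-scaled counts, in 14 pairs and 42 exact permutation tests. Of these, 16 had a Benjamini-Hochberg adjusted p under 0.05, and the smallest exact p that 3432 splits of 7 against 7 samples can give is 0.000583. The pair Sec11c over Sec11a changed in all 3 comparisons. The ratio was 1.22, 1.44 and 1.65 in RD (lowest, median and highest), 1.63, 1.82 and 2.05 in HFD and 1.01, 1.08 and 1.24 in HFD-O304 islets, so that the HFD-O304 samples were all below the HFD samples. The mean log2 ratio was 0.53 ± 0.15 (SD, n = 7) with RD, 0.87 ± 0.12 with HFD and 0.15 ± 0.11 with HFD-O304, and each of the 3 differences had an adjusted p of 0.00979 by the exact two-sided permutation test. All 3 differences had the same sign within each library set.

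Sec16b over Sec16a fell by 0.44 on the log2 scale with O304 compared with HFD (adjusted p = 0.00979, exact permutation test), and its ratio was 0.282 to 0.390 in HFD-O304 against 0.400 to 0.528 in HFD islets. Kdelr3 over Kdelr2 was 0.064 to 0.121 in RD, 0.081 to 0.236 in HFD and 0.070 to 0.091 in HFD-O304 islets, a difference of 0.82 (adjusted p = 0.0196, exact permutation test) in HFD vs RD and of -1.05 (adjusted p = 0.0140) in HFD-O304 vs HFD. Kdelr2 over Kdelr1 went the other way, with -0.12 (adjusted p = 0.0343, exact permutation test) for HFD vs RD and 0.22 (adjusted p = 0.0122) for HFD-O304 vs HFD.

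Among the other pairs, Sar1b over Sar1a fell by 0.13 in HFD vs RD (adjusted p = 0.00979, exact permutation test), and Sec23b over Sec23a fell by 0.32 (adjusted p = 0.0163), Sec24d over Sec24b by 0.28 (adjusted p = 0.0315), Sec24d over Sec24c by 0.18 (adjusted p = 0.0282) and Stt3b over Stt3a by 0.075 (adjusted p = 0.0282) in HFD-O304 vs HFD. Sec24b over Sec24a fell by 0.17 in HFD vs RD (adjusted p = 0.0382, exact permutation test). These ratios compare paralogs within a sample and do not depend on the scaling between samples. Their absolute values depend on the merged exon lengths, whereas the differences between groups do not.

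**Figure D4:**
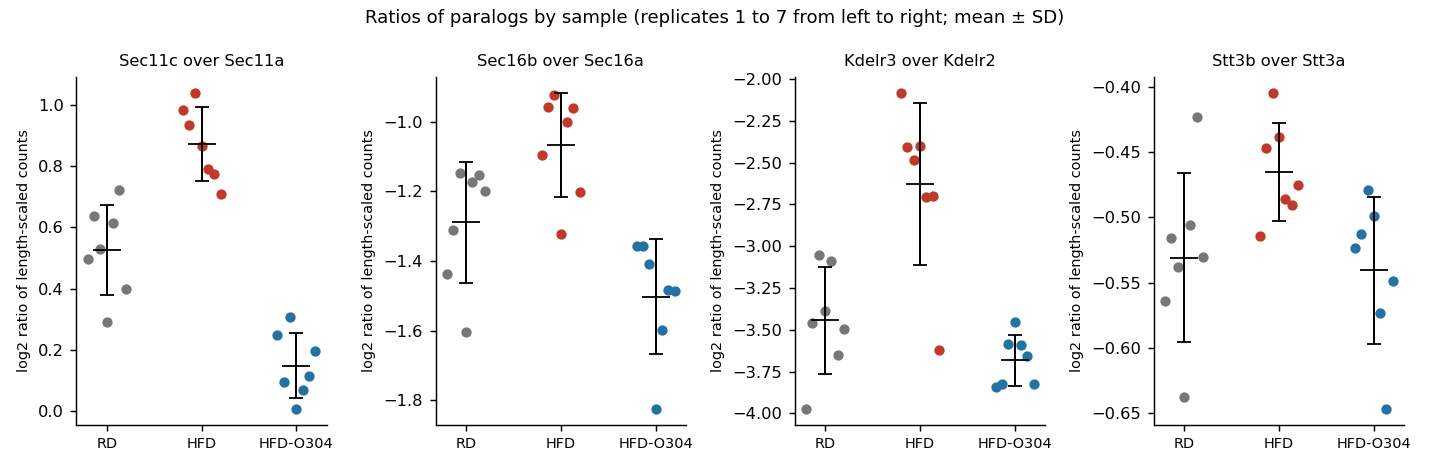
Log2 ratio of length-scaled counts of 4 paralog pairs by group (RD, HFD, HFD-O304), with a point for each of 7 samples and mean ± SD. Sec11c over Sec11a has means of 0.53, 0.87 and 0.15, with the HFD-O304 samples below all HFD samples, and Kdelr3 over Kdelr2 is widest in HFD islets.

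The levels of the members were correlated from sample to sample within groups. With the group means removed, the median Pearson r over the 1431 pairs of members was 0.80 across 21 samples. It was 0.11 between members and other genes with a mean of at least that of the lowest member. With the means of each library set in each group removed as well, these medians were 0.70 and 0.079. These values are descriptions, since the points share libraries and scaling. The COPII genes were the loosest role (median r = 0.46), and Sec24b (-0.18), Sec16b (0.25) and Sec23a (0.30) had the lowest median r with the other members. Kdelr3 varied most among the RD and among the HFD samples, with an SD of the log2 normalized count of 0.38 and 0.61 against 0.16 among the HFD-O304 samples.

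Markers of the islet cell types differed between the groups. The β-cell markers had a median sum of 309256 CPM in RD, 326531 CPM in HFD and 292490 CPM in HFD-O304 islets, with overlapping ranges. Of the 8 β-cell markers, 1 was called higher and 1 lower in HFD vs RD, and 2 were called higher and 3 lower with O304 relative to HFD. The summed level of 4 α-cell markers was 21927 to 29147 CPM in RD, 10293 to 17744 CPM in HFD and 25091 to 32776 CPM in HFD-O304 islets. Of these 4 markers 3 were called lower and 1 higher in HFD vs RD, and 3 were called higher and 1 lower with O304 relative to HFD. The 2 δ-cell markers summed to 2241 to 3732, 1216 to 2743 and 2344 to 4457 CPM in the same order. In bulk RNA, fewer cells of a type and less RNA per cell cannot be told apart. The 4 cycling cell markers Mki67, Top2a, Ccnb1 and Cdk1 summed to 12.4 to 19.1 CPM in RD, 13.7 to 78.3 CPM in HFD and 6.26 to 14.7 CPM in HFD-O304 islets, and all 4 were called, higher in HFD vs RD and lower with O304 relative to HFD. HFD replicate 7 was lowest within HFD both in the mean log2 CPM of these markers, at 1.54, and in the level of the members, at -0.03. The other HFD samples did not all follow this order, since replicate 3 was at 3.69 and 0.080 and replicate 5 at 2.72 and 0.17. Of 5 stellate cell or fibroblast markers, 3 were called lower in HFD-O304 vs HFD, as were 2 of 4 endothelial markers, while 3 of 4 duct cell markers were called higher. Of 10 acinar markers, which ranged from 4.65 to 7875 CPM over all samples, none was called by edgeR in any comparison.

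The members' values were also computed with the level of the α-cell, the cycling cell or the stellate cell or fibroblast markers as a covariate, which was decided after the data were examined. No such fit was made for the other marker lists that differed. With the α-cell markers, the median log2 fold change over members was 0.13 for HFD vs RD and -0.23 for HFD-O304 vs HFD, and with the stellate cell or fibroblast markers it was 0.12 and -0.20. With the cycling cell markers it was -0.051 and 0.052, opposite in sign to the values without the covariate. With either the α-cell or the cycling cell markers 0 members were called in any comparison, and of all genes 5 and 3 were called higher in the first comparison and 34 and 25 lower in the second (edgeR). Under the cycling cell covariate Sec11c stood at -0.34 and Sec16b at -0.40 in HFD-O304 vs HFD, and Kdelr3 at -0.018. The mean log2 CPM of the α-cell markers did not overlap between HFD and the other groups (7.20 to 7.69 in HFD islets against 7.73 to 8.07 with RD and 7.97 to 8.18 with HFD-O304). That of the cycling cell and of the stellate cell or fibroblast markers overlapped between HFD islets and each of the other groups. For the cycling cell markers this overlap came only from HFD replicate 7, at 1.54. The other HFD samples were at 2.69 to 4.04, above all RD samples (up to 1.89) and all HFD-O304 samples (up to 1.59). Group and cycling cell marker level could thus hardly be told apart in that fit. The part of these cell types in the members' differences was not tested.

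Lists of other genes of the pathway were examined in the same fit. For comparison, 6.79% of all genes and 11.5% of the 7943 genes were called lower in HFD-O304 vs HFD. In HFD vs RD 2.00% and 3.0% were called higher. In HFD-O304 vs HFD, 8 of 33 further translocation genes were called lower, with the smallest p for Nomo1 (-0.57), a channel-associated protein, and Dnajc1 (-0.39), an ER cochaperone. Of 32 further glycosylation genes 9 were called lower, led by Krtcap2 (-0.63), a subunit of the oligosaccharyltransferase, and Alg5 (-0.79), which makes a donor sugar, and 3 were called higher in HFD vs RD, led by Alg5 (0.54) and Prkcsh (0.60), a subunit of glucosidase II. Among 32 further COPII and tether genes 7 were called lower with O304, led by Nbas (-0.44) and Bet1 (-0.55), a SNARE protein.

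Of 12 further COPI and Arf genes 4 were called lower in HFD-O304 vs HFD, led by Copz2 (-0.83), a paralog of Copz1, and Golph3 (-0.31), and Copz2 was the only member of that list called higher in HFD vs RD (0.59). Of 20 further cargo receptor genes 9 were called lower, led by Ergic1 (-0.64) and Tmed3 (-0.89), and Tmed3 was the only one called higher in HFD vs RD (0.64). Among 11 regulators of the secretory machinery, Creb3 (-0.42) and Bhlha15 (-0.56), both transcription factors, were called lower with O304 and none was called in HFD vs RD, where 2 were higher at an unadjusted p under 0.05. For a list of 11 genes, 2 calls are near the share of 11.5% among the 7943 genes. No gene of these 6 lists was called higher in HFD-O304 vs HFD or called in HFD-O304 vs RD by edgeR. At an unadjusted p under 0.05, 0 to 2 genes per list were higher in the former, and 2 to 6 were lower and 0 to 1 higher in the latter. The median log2 fold change per list ranged from -0.26 to -0.12 in HFD-O304 vs HFD and from -0.016 to 0.22 in HFD vs RD.

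Promoter sequence was examined because the members' levels were correlated and because secretory pathway genes are known targets of the transcription factors XBP1 and ATF6, which bind elements with a CCACG or ACGTG core. RefSeq promoters (GRCm38.p6) were listed for 44 of 54 members, and the 250 bases before each gene start were searched on both strands. The full ER stress response element, CCAAT and CCACG separated by 9 bases, was in 0 of 44 member promoters and in 0.13% of all 27025 genes with a listed promoter. Its part CCACG was in 54.5% of member promoters against 31.0% of all, GCCACGT, which contains CCACG, in 20.5% against 2.33%, TGACGTG in 9.09% against 1.85%, and TGACGTCA in 2.27% against 1.77%. The genes compared with the members were not matched to them for expression or base composition. GCCACGT was in 5 of 17 members called lower with O304 and in 4 of 27 that were not called.

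Kdelr3, Sec16b and Sec24d are shown because GCCACGT and TGACGTG overlap in their promoters, and Spcs1, Ssr3 and Ssr1 as further members with GCCACGT. Each line gives 30 bases 5′ to 3′ on the strand of the gene, with the matched letters in capitals, and GCCACGT can appear as its reverse complement.
Kdelr3: ctggccgccccGCCACGTCAccgcgcggcc
Sec16b: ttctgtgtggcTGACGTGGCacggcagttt
Sec24d: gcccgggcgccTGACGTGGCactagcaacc
Spcs1: agctctgcagcaGCCACGTagggccacaac
Ssr3: tggcattgaggcGCCACGTaccctgaagga
Ssr1: gggcgcttagagGCCACGTcgacggtggcg

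The stretch of Kdelr3 lies at chr15:79516366-79516395 on the plus strand, with the capitals 31 to 23 bases before the gene start, and that of Sec16b at chr1:157506741-157506770 on the plus strand, 44 to 36 bases before the first of its listed starts. That of Sec24d lies at chr3:123267459-123267488 on the plus strand, 26 to 18 bases before the start. Spcs1 (chr14:31001710-31001739), Ssr3 (chr3:65392727-65392756) and Ssr1 (chr13:37994218-37994247) are on the minus strand, with matches that begin 61, 191 and 27 bases before the start, the last being the nearer of a pair of matches in Ssr1. Kdelr3, Sec16b, Spcs1 and Ssr3 were called lower in HFD-O304 vs HFD and Sec24d and Ssr1 were not. A match describes the letters in the window and does not show that a factor binds there.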

How the data were processed

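Total RNA of islets was sequenced with paired-end reads of 50 nt. The authors mapped the reads with STAR to GRCm38 (Ensembl version 96), and the deposited values are raw gene counts for each of the 21 samples. Pairs with more than 1 possible position or gene were left uncounted. Each table has counts for both strands together and for either strand, and the strand with 28.8 to 36.3 times the total of the other was used here. Genes with at least 10 reads over all samples (27229) were tested with edgeR 4.0.16 in R 4.3.3 (TMM, quasi-likelihood F test, 1 fit of all 3 groups, no covariates) and called at a Benjamini-Hochberg adjusted p under 0.01 over all genes. The standard error is the log2 fold change divided by the square root of F. Normalized counts are counts divided by the size factors of DESeq2 1.42.0, which the authors used for their own tests. Paralog ratios were compared by the exact two-sided permutation test in scipy 1.17.1. The edgeR script was tested on simulated data with known changes.

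Every member is named, and values per group are given in full for the members with the smallest p of each role in each comparison, for the member of each role furthest against its role in HFD-O304 vs HFD, and for all members called in HFD vs RD or HFD-O304 vs RD. From each list of other pathway genes the 2 called genes with the smallest p are named. The members, the lists and these rules were chosen with earlier results of these data known. Groups came from the sample titles, except for HFD replicate 3, which was placed by its diet label. Alternatives covered another test, scaling, filter, strand setting, threshold and choice of samples, the library set, acinar markers, the replicate block and each sample left out, and covariates for 3 further marker lists and other fits of the paralog ratios were added after the data were examined. Spcs2 and Tmed10 have annotated pseudogenes that carry their names, and their counts may be incomplete. Pseudogenes of the members under other names were not searched for.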

Additional observations from a re-analysis of the deposited data

Results flagged for a closer look

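Among the 54 sets of 7 samples checked for a single sample that stands apart (the level of the members and the 17 genes given in full, in 3 groups), 2 had a gap to the nearest sample above Dixon's 95% critical value of 0.568 of the whole range. Chance gives about 1 in 20 such sets. Sec24b was lowest in RD replicate 3, at 1947 normalized counts, with a gap of 0.642 of the range. Copz1 was highest in HFD-O304 replicate 4, at 5738 normalized counts, with a gap of 0.671 of the range. Without HFD-O304 replicate 4 the call of Copz1 in HFD-O304 vs HFD held.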

How the results depend on the processing

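The direction of the median over members held in all alternatives except the cycling cell covariate, where it was -0.051 for HFD vs RD and 0.052 for HFD-O304 vs HFD, and the second library set alone, where it was 0.014 in HFD-O304 vs RD. Members called higher in HFD vs RD numbered 4, and 5 by DESeq2, 2 in a fit of only the 2 groups, 9 with the library set as covariate, 3 and 2 in the first and second library set alone, 0 with the α-cell, cycling cell or stellate cell covariate and 8 at an adjusted p under 0.05. The share of all genes called higher was 2.00%, and 3.54% by DESeq2, 1.48% for the 2 groups and 3.31% with the library set. It was 1.39% and 0.747% within the sets and 4.20% at 0.05. With the α-cell, cycling cell and stellate cell covariates it was 0.0184%, 0.0110% and 0.371%. Members called lower in HFD-O304 vs HFD numbered 20, and 26 by DESeq2, 17 with no filter, 24 in a fit of the 2 groups, 33 with the library set, 16 and 8 within the sets, 0 with the α-cell or cycling cell covariate, 6 with the stellate cell covariate and 32 at 0.05. Of all genes 6.79% were called lower, and 8.44% by DESeq2, 4.48% with no filter, 6.75% for the 2 groups and 7.90% with the library set. Within the sets 5.12% and 3.65% were, and 10.2% at 0.05. With the α-cell, cycling cell and stellate cell covariates 0.125%, 0.0918% and 3.32% were. For HFD-O304 vs RD the count of 1 became 2 in a fit of the 2 groups or at 0.05, 3 with the library set and 0 within either set or with the α-cell or cycling cell covariate. The share of all genes called lower was 0.903%, and 1.27% for the 2 groups, 1.89% at 0.05 and 1.34% with the library set. It was 0.219% and 0.617% within the sets and 0.727% and 0.525% with the α-cell and cycling cell covariates. The cause of these changes was not tested. In the smaller sets fewer samples enter the fit.

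With 1 sample left out in turn, members called numbered 2 to 6 in HFD vs RD (2 without RD replicate 6 or 7 or HFD replicate 1 or 4, and 6 without HFD replicate 7), 15 to 26 in HFD-O304 vs HFD and 0 to 1 in HFD-O304 vs RD, with medians over members of 0.13 to 0.22, -0.28 to -0.21 and -0.15 to -0.060. Of the calls, 2 of 4, 15 of 20 and 0 of 1 held in all 21 fits. A called member changed sign only with the cycling cell covariate: Ssr4 (-0.025) for HFD vs RD, and for HFD-O304 vs HFD Ssr3 (0.070), Spcs1 (0.11), Ddost (0.032), Dad1 (0.060), Copz1 (0.0079) and Tmed2 (0.0024), with adjusted p-values of at least 0.867 (edgeR).

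The groups share replicate numbers 1 to 7. Same-numbered samples deviated together, at a correlation over 0.1, in 4, 5 and 6 of 7 pairs, and 3, 2 and 2 of 7 samples correlated best with their own number, so the numbers were not taken as pairs. With the replicate block, 8, 30 and 2 members were called in these comparisons, taken as HFD vs RD, HFD-O304 vs HFD and HFD-O304 vs RD, and 3.21%, 7.82% and 1.36% of all genes were called in these directions.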
